A study of Mus musculus with 10 samples.

Results

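The genes of cytochrome P450 families 1 and 2 were measured in mouse liver with and without added LKB1. They were taken as every gene whose platform symbol begins with Cyp1 or Cyp2 followed by a letter, which gave 46 of the 19057 genes named on the array, read by 73 of its 45281 probes. Of these, 44 probes of 30 genes passed the filter on low signal (4 or more arrays with a detection p under 0.05), against 16803 probes of 9725 genes in all. The RNA came from livers of 10 FVB mice, an inbred laboratory strain, each read on 1 Illumina bead array. In 6 mice, called LKB1 here, a plasmid with wild-type LKB1 was given by tail vein in 1 weekly injection over 8 weeks. The other 4 mice were untreated, so they carried neither plasmid nor injections, and these cannot be told apart from LKB1 itself. The sources used here do not give the age and sex of the mice, the plasmid's promoter or any isolation of hepatocytes. LKB1 is the kinase encoded by Stk11 and acts upstream of AMPK, and the comparison asks how P450 transcripts stood where it had been added. The Stk11 probe gave a difference of 0.06 on the log2 scale, with a 95% confidence interval from -0.12 to 0.24. The sources used here do not say which part of the transcript it reads.

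Cytochromes P450 are haem enzymes that insert an oxygen atom into their substrates, using electrons passed on by P450 reductase and cytochrome b5. Families 1 and 2 oxidise drugs, plant compounds, pollutants, steroids and fatty acids, mostly in the endoplasmic reticulum of hepatocytes. Many members are made in one zone of the liver lobule, differ between male and female mice, or are induced through the receptors AhR, CAR and PXR, and several mouse subfamilies lie as clusters of close paralogs. Cross-reaction of a probe with a close paralog was not tested, since the probe sequences were not used here.

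No Cyp1 or Cyp2 gene differed between LKB1 and untreated livers at an adjusted p of 0.05 (limma, 0 of 44 probes), and neither did any of the 16803 probes tested (0%). The largest difference was that of Cyp2a5, at 1.75-fold lower in LKB1 livers with mice of both groups overlapping, while the most strongly lit members, among them Cyp2e1, Cyp2f2, Cyp2c70 and Cyp2d10, had group means within 0.09 of each other. With array medians made equal these 4 lay between -0.12 and -0.21, where the median of all probes was -0.14. Without adjustment, 5 of 44 probes had a p under 0.05 (limma), all lower in LKB1 livers, where 6.66% of all probes had such a p, 3.18% lower and 3.48% higher. These were 4 of the 5 probes of Cyp2a5 and the probe of Cyp2c55. The Cyp2c55 probe lay near background and met the filter with 3 untreated arrays and 1 LKB1 array. It was thus kept mainly through the group where it read higher, which bears on the counts by probe and by gene. Counted as genes at their brightest probe, 2 of 30 had a p under 0.05, or 6.67%, against 6.3% of all genes. In direction, 10 genes were higher and 20 lower, and the median log2 fold change was -0.05, against -0.0025 over all genes. That split depends on the scaling: with array medians made equal 0 genes were higher and 30 lower, 24 of them below the median of all probes. Changes stayed within 0.25 on the log2 scale for 24 of 30 genes (80%), against 92.3% of all genes. For 0 of 44 probes were the groups free of overlap, against 1.37% of all probes. In bulk RNA, fewer cells of a type and less RNA per cell cannot be told apart. The limma p-values set each difference against the spread between these mice, with variances partly shared over all kept probes. The permutation p-values below come from reordering the mice.

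**Figure D1:**
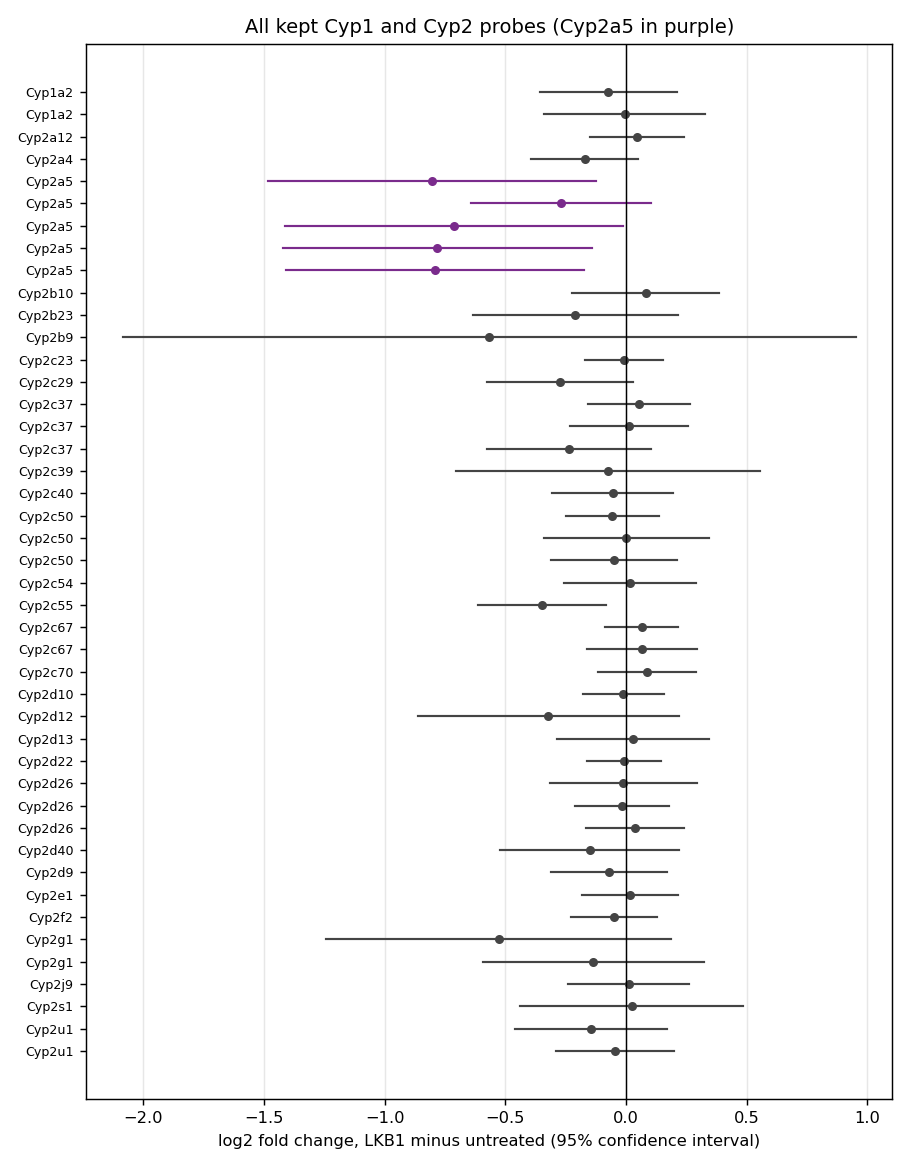
LKB1 minus untreated difference on the log2 scale (x axis) for each of the 44 kept probes, labelled by gene (y axis). Bars are 95% confidence intervals from limma, and a gene with several kept probes has a row for each. The brightest Cyp2a5 probe lies farthest from 0 at -0.80, and Cyp2b9 has the widest interval, from -2.08 to 0.95.

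**Figure D2:**
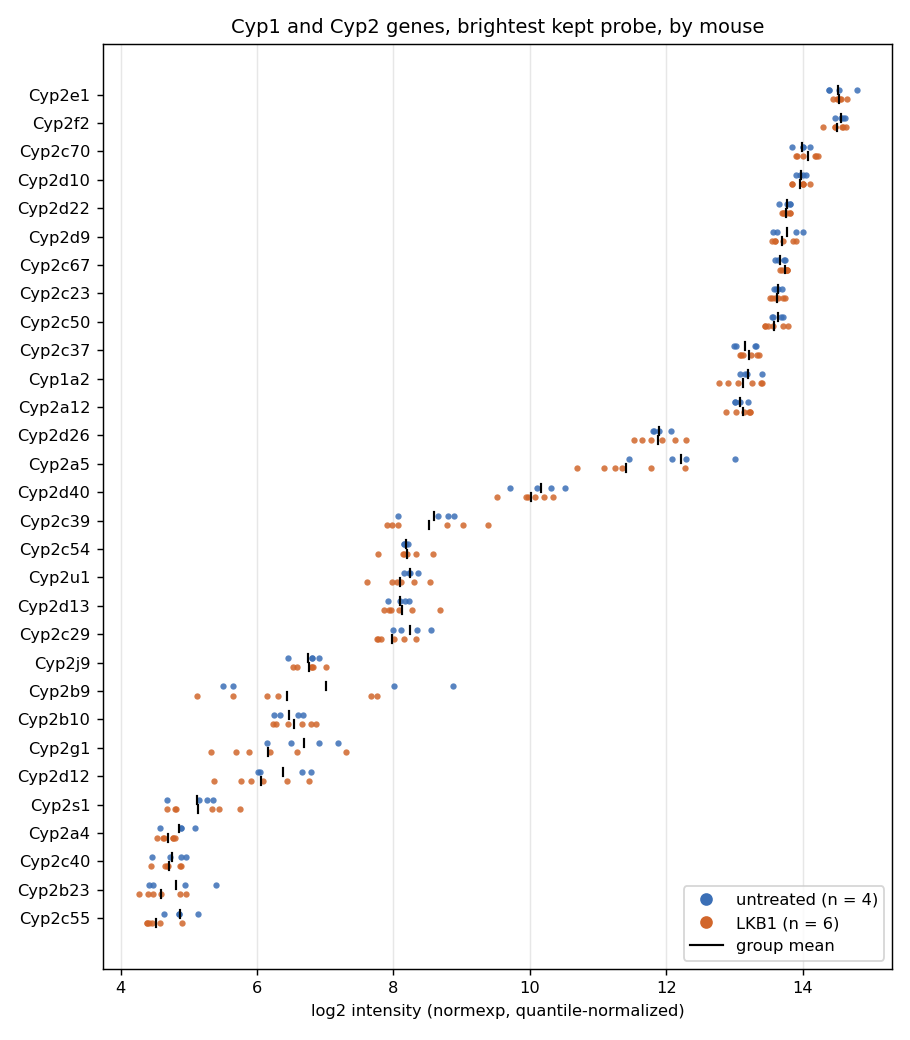
Log2 intensity of each of the 30 measured genes at its brightest probe in each of the 4 untreated and 6 LKB1 mice, with 1 point per mouse. The groups overlap for every gene drawn, and the points of Cyp2b9 are spread over the widest range.

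The labelled tissue fitted the markers of hepatocytes, the cells that carry most of these enzymes. All 8 hepatocyte markers were kept, 6 higher and 2 lower in LKB1 livers, and their summed linear level ran from 79622 to 83837 in untreated and from 79687 to 88898 in LKB1 livers. Other liver cells were present too. Of 10 Kupffer cell markers, 9 were kept and all 9 were higher (median 0.24 on the log2 scale), with a summed level of 2233 to 3938 in untreated against 3220 to 4505 in LKB1 livers, while Cd5l was not kept. Of 8 endothelial markers, 7 were kept, 6 of them higher (median 0.07, summed level 6162 to 8842 against 7272 to 8992), and of 8 stellate markers 7 were kept, 5 of them higher. Of 6 red cell markers, 4 were kept and all 4 were lower (median -0.16, summed level 22327 to 35629 against 12947 to 44744). Of 10 pericentral markers, which include Cyp2e1 and Cyp1a2, 9 were kept, 2 higher and 7 lower (median -0.09), and of 9 periportal markers, which include Cyp2f2, 6 were kept, 2 higher and 4 lower (median -0.02). Cholangiocyte, lymphocyte and neutrophil markers had 3 of 6, 3 of 7 and 1 of 5 kept, with 2, 2 and 0 higher. Their part in the differences below was not tested. Between 15374 and 16839 probes were detected per array. The arrays were clustered on probes at background and the clustering was cut into 2 sets, a number that was imposed. Each set holds both groups. Set A was LKB1 1, 2 and 4 with untreated 1 and 2, and set B was LKB1 5, 6 and 7 with untreated 3 and 4. This grouping is by similarity of background only, since the labels give no chip or date.

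Cyp2a5, which hydroxylates coumarin and oxidises nicotine, had the largest difference of the families. Its brightest probe read 12.08, 13.01, 12.29 and 11.46 on the log2 scale in the 4 untreated livers, and 10.69 at the lowest, 11.30 at the median and 12.28 at the highest in the 6 LKB1 livers. The groups overlapped: untreated 4 lay within the LKB1 range, and LKB1 1 lay above 2 of the untreated mice. The log2 fold change was -0.80 ± 0.31 (SE), which is 1.75-fold lower with a 95% confidence interval from 1.09 to 2.80, and the adjusted p was 0.678 (limma). Within array set A the difference was -0.78 and within set B -0.83. Without untreated 2 it was -0.54, and 1 of the 44 probes then had an unadjusted p under 0.05 in place of 5.

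Of the 5 probes of Cyp2a5, 4 gave differences between -0.71 and -0.80. In order of brightness the second probe read -0.27 ± 0.17 (SE, adjusted p = 0.83, limma), the one after it -0.71 ± 0.32 (adjusted p = 0.745), the next -0.78 ± 0.30 (adjusted p = 0.674) and the dimmest -0.79 ± 0.28 (adjusted p = 0.645). The second probe therefore gave the smallest difference, and its SD within groups was 0.31, against 0.53 to 0.61 for the other 4. Untreated 2 was the highest mouse and LKB1 6 the lowest on every one of the 5 probes. The probes read 1 transcript in the same 10 RNA samples, so they are not independent measurements of the difference.

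**Figure D3:**
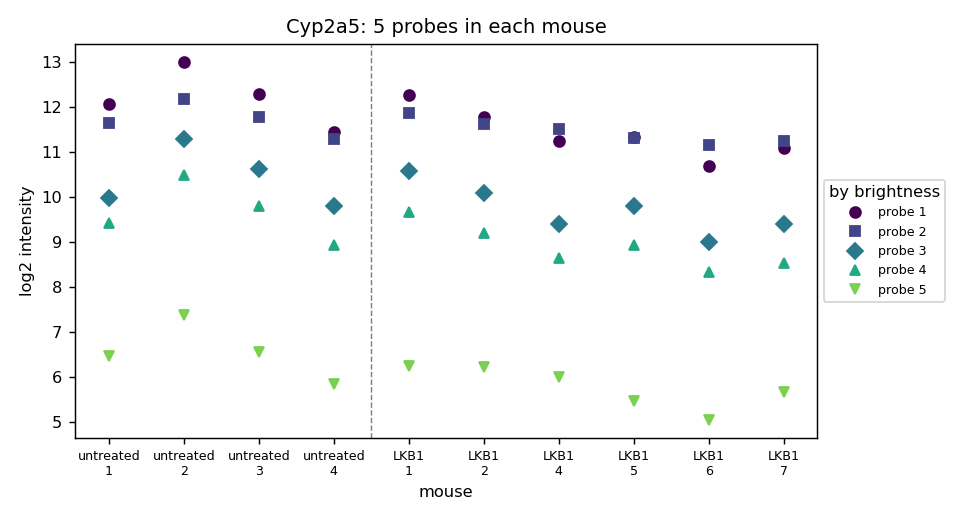
Log2 intensity (y axis) of the 5 Cyp2a5 probes in each of the 10 mice (x axis), with 1 marker shape per probe. All 5 probes peak in untreated 2 and are lowest in LKB1 6, and the differences between mice are smallest on the second probe.

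Its neighbour Cyp2a4, a steroid hydroxylase of the same cluster, lay near background. Its probe passed detection in 3 of the 4 untreated mice and in 3 of the 6 LKB1 mice, with 4.58, 4.89, 5.09 and 4.88 in untreated livers and 4.53, 4.70 and 4.80 as the lowest, median and highest of the LKB1 livers. Its log2 fold change was -0.17 ± 0.10 (SE, adjusted p = 0.819, limma), and the groups overlapped. Cyp2a12, another steroid hydroxylase, read 13.08, 13.02, 13.19 and 13.01 in untreated livers and between 12.88 and 13.24 (median 13.18) in LKB1 livers, a difference of 0.05 ± 0.09 (SE), or of -0.18 with array medians made equal. The Cyp2a subfamily thus held 1 gene higher and 2 lower, all 3 with overlapping groups.

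The promoters of Cyp2a5 and Cyp2a4 are shown because both genes have been described as targets of Dbp in mouse liver. Dbp (D-site albumin promoter binding protein) is a PAR bZIP transcription factor under control of the circadian clock. The 250 bases before each gene's start are given from RefSeq on build GRCm38.p6, plus strand, with TTGCATAA in capitals. These lie at chr7:26835089-26835338 for Cyp2a5 and chr7:26306942-26307191 for Cyp2a4.
Cyp2a5: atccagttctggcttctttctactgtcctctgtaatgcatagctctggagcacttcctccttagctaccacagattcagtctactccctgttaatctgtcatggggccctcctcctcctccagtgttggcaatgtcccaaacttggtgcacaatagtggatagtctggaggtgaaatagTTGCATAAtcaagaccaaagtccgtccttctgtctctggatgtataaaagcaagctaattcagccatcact
Cyp2a4: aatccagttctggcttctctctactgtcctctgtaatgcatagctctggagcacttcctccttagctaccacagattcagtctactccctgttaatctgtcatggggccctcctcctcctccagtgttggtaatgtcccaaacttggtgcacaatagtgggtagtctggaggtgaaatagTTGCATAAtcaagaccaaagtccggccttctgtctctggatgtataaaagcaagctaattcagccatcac
Over 249 aligned bases, 245 were the same (98.4%) and 4 differed. The capitals read TTATGCAA on the other strand and start 71 bases before the start of Cyp2a5 and 70 bases before that of Cyp2a4. This word was chosen after the promoters had been read, so its counts are a description. Promoters were read from 250 bases before to 50 bases after the start and searched on both strands. TTATGCAA stood in 5 of the 38 member genes with a promoter in RefSeq's table, namely Cyp2a4, Cyp2a5, Cyp2b10, Cyp2b19 and Cyp2b23, all on chromosome 7, and in 0.743% of 32841 promoters. The forms TTATGTAA and TTACGTAA, to which PAR bZIP factors bind, stood in 0 of 38 member genes and in 0.938% and 0.119% of all promoters. The E-box CACGTG stood in Cyp2j6 (7.15% of all promoters), and the AhR element TNGCGTG in Cyp2c68 (5.07%). A match is a run of letters, not a bound site.

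Dbp itself was among the genes of P450 partners and regulators, and its level ran with that of Cyp2a5 from mouse to mouse. It read 11.40, 12.58, 12.19 and 12.12 in untreated livers and 7.96, 10.14 and 11.39 as the lowest, median and highest of LKB1 livers, so that every LKB1 mouse lay below every untreated mouse, the closest pair at 11.39 and 11.40. Its log2 fold change was -2.09 ± 0.53 (SE, adjusted p = 0.442, limma). With array medians made equal it was -2.32 and passed (adjusted p = 0.0211, limma). Within array set A it was -1.43 and within set B -2.75. Over the 10 mice, Dbp and Cyp2a5 correlated with Pearson's r = 0.84 (permutation p = 0.00225, adjusted p = 0.0112 over 5 gene pairs) and Spearman's rho = 0.89 (permutation p = 0.00112, adjusted p = 0.0056). The groups differ in both genes, which a pooled r takes in. Within the 6 LKB1 mice r was 0.90 (exact permutation p = 0.0111, adjusted p = 0.0555), and with group means subtracted it was 0.74 (permutation p = 0.0115, adjusted p = 0.0575), so neither passed the adjustment. Without the 2 mice farthest from the median of Dbp, r was 0.71 (permutation p = 0.0471, adjusted p = 0.236), so the adjusted call rests on those mice. Leaving out LKB1 6 alone gave r = 0.78 (adjusted permutation p = 0.069). With array set means subtracted r was 0.88, and a set of 5 mice is too small for an r of its own.

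The further probes of Cyp2a5 were read in the same 10 RNA samples, so they describe the relation again and are no independent test of it. All 5 probes had r between 0.69 and 0.85 with Dbp over the 10 mice (permutation p from 0.00191 to 0.0268). Within the 6 LKB1 mice r lay between 0.74 and 0.93. This extension was made after the first probe had been seen. Set against every kept probe other than Dbp, the brightest Cyp2a5 probe stood among the highest, with 48 of 16802 probes (0.286%) at or above its r, and 0 probes of another Cyp1 or Cyp2 gene reached it. Cyp2g1 came next among the members at 0.76, with 0.56 on its other probe. The median r with Dbp was 0.29 over the 44 member probes and -0.0026 over all probes, as a description over probes that share the same 10 RNA samples. Cyp2a4, near background, had r = 0.27 with Dbp (permutation p = 0.448, adjusted p = 0.467) but -0.74 within the 6 LKB1 mice and -0.20 with group means subtracted, so no direction is read from it.

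**Figure D4:**
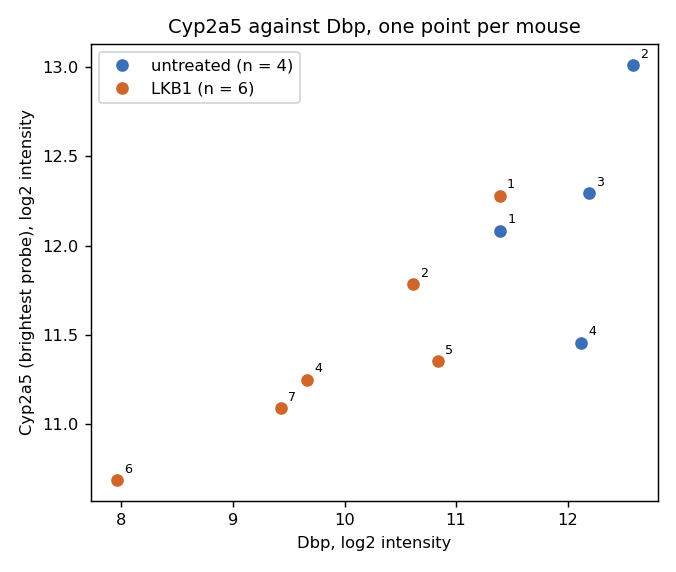
Log2 intensity of Dbp (x axis) against that of the brightest Cyp2a5 probe (y axis), with 1 point per mouse and the 2 groups in different colours. Mice with less Dbp had less Cyp2a5, with LKB1 6 lowest on both axes.

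The Cyp2b genes, which oxidise drugs and steroids and include the phenobarbital-induced Cyp2b10, had 3 of 5 members measured, 1 higher and 2 lower. Cyp2b9, a form found mainly in livers of female mice, read 5.64, 8.87, 8.01 and 5.50 in the 4 untreated livers and 5.12, 6.23 and 7.77 as the lowest, median and highest of the LKB1 livers. Untreated 2 and 3 and LKB1 1 and 6 stood at 7.67 or above, and the other 6 mice at 6.31 or below, so high and low mice were found in both groups. Its within-group SD of 1.34 was larger than that of 99.96% of kept probes. The difference of -0.57 had a 95% confidence interval from -2.08 to 0.95, and it was 0.05 without untreated 2. Cyp2b10 read 6.25, 6.68, 6.60 and 6.34 in untreated livers and 6.24, 6.56 and 6.86 in LKB1 livers, a difference of 0.08 ± 0.14 (SE) with a within-group SD of 0.24. Cyp2b23 was near background, detected on 4 arrays, with 4.41, 5.40, 4.95 and 4.47 in untreated livers against 4.27, 4.54 and 4.96 in LKB1 livers (-0.21 ± 0.20, SE). Of the other Cyp2b genes, Cyp2b13 was detected on 1 array and Cyp2b19 on 0 arrays.

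Large spread within groups was shared by other members. Of the 30 genes, 8 had a within-group SD above the 90th percentile of all kept probes, namely Cyp2b9, Cyp2g1, Cyp2a5, Cyp2c39, Cyp2d12, Cyp2s1, Cyp2b23 and Cyp2d40. Of these 8 genes, 5 were on chromosome 7, which holds 10 of the 30. Cyp2g1, known as a P450 of the olfactory mucosa, read 6.50, 7.18, 6.91 and 6.15 in untreated livers and 5.33, 6.03 and 7.30 as the lowest, median and highest of LKB1 livers. LKB1 1, with the highest reading of all 10 mice, was within the treated group, and the difference of -0.53 ± 0.33 (SE, adjusted p = 0.827, limma) fell short of the spread. The other Cyp2g1 probe, near background, gave -0.13. The difference was -0.25 in array set A and -0.80 in set B. Untreated 2 and 3 and LKB1 1, on arrays of both sets, lay above the mean of the 10 mice for Cyp2b9, Cyp2g1 and Cyp2a5. They did so too for Cyp2b23, near background, and for Cyp2c39 on chromosome 19. For Cyp2d12, Cyp2s1 and Cyp2d40 untreated 2 and LKB1 1 lay below it.

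**Figure D5:**
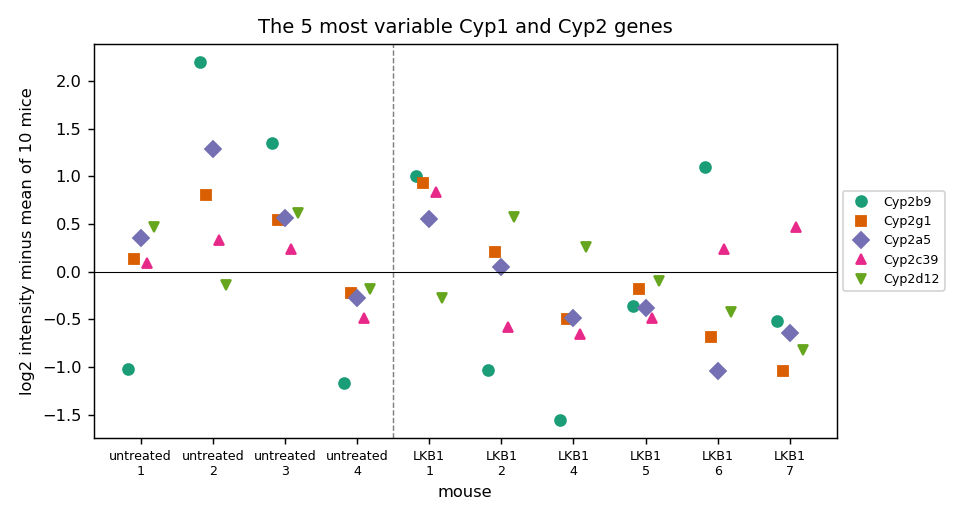
Log2 intensity minus the gene's mean over the 10 mice (y axis) for the 5 members of largest within-group SD, in each mouse (x axis). Untreated 2 and 3 and LKB1 1 stand above 0 for Cyp2b9, Cyp2g1, Cyp2a5 and Cyp2c39. For Cyp2d12, untreated 2 and LKB1 1 stand below 0. Cyp2b9 covers the widest range.

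The Cyp2c genes, of which most oxidise arachidonic and other fatty acids, had 10 of 13 genes measured, 4 higher and 6 lower. Cyp2c70, which makes the muricholic acids, the bile acids typical of mice, read 14.00, 14.11, 13.84 and 14.00 in untreated livers and 13.91, 14.09 and 14.23 as the lowest, median and highest of LKB1 livers. Its difference of 0.09 had a 95% confidence interval from -0.12 to 0.29. Cyp2c55 had the smallest p of the Cyp2c genes but lay near background, detected in 3 of 4 untreated livers and in 1 of 6 LKB1 livers. It read 4.86, 4.63, 4.85 and 5.13 in untreated livers and 4.38, 4.43 and 4.90 in LKB1 livers, so the groups overlapped. Its log2 fold change was -0.35 ± 0.12 (SE, adjusted p = 0.645, limma), or -0.12 in array set A and -0.57 in set B. So close to background, these arrays cannot give whether the transcript changed or by how much.

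The other Cyp2c genes lay between -0.27 and 0.07. Cyp2c29 was the lowest of them, at 7.98 ± 0.23 (SD, n = 6) in LKB1 and 8.25 ± 0.25 (SD, n = 4) in untreated livers. Cyp2c39 differed by -0.08 with a within-group SD of 0.55, and Cyp2c40, near background, by -0.05. Cyp2c23, Cyp2c50, Cyp2c54, Cyp2c37 and Cyp2c67 differed by -0.01, -0.06, 0.02, 0.05 and 0.07 at their brightest probes. The further probes of these genes read differences of 0.00 and -0.05 for Cyp2c50, of 0.01 and -0.23 for Cyp2c37 and of 0.07 for Cyp2c67. Probes of 1 gene were unlike in brightness: those of Cyp2c37 averaged 13.19, 13.17 and 5.12, and those of Cyp2c50 13.6, 8.56 and 7.20. The Cyp2c37 probe that gave -0.23 was the dim one. Cyp2c38, Cyp2c65 and Cyp2c68 were detected on 0 arrays.

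The Cyp2d genes oxidise basic drugs and steroids, and 7 of 8 were measured, 1 higher and 6 lower. Cyp2d10 read 13.97, 14.00, 14.05 and 13.91 in untreated livers and 13.84, 14.00 and 14.11 in LKB1 livers, a difference of -0.01 with a 95% confidence interval from -0.18 to 0.16. Cyp2d12 had the smallest p, with 6.65, 6.05, 6.80 and 6.01 in untreated livers against 5.36, 6.00 and 6.76 in LKB1 livers. Its difference of -0.32 ± 0.25 (SE, adjusted p = 0.863, limma) was 0.02 in array set A and -0.66 in set B, so it did not keep its direction. Cyp2d9, a steroid hydroxylase found mainly in male livers, differed by -0.07, Cyp2d22 by -0.01 and Cyp2d40 by -0.15. The 3 probes of Cyp2d26 gave -0.01, -0.02 and 0.04. Cyp2d13, which RefSeq lists as a transcribed pseudogene, was detected on all 10 arrays and differed by 0.03. Cyp2d34 was detected on 0 arrays.

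Cyp2e1 and Cyp2f2, both among the most strongly lit probes of the array, differed between the groups by 0.02 and -0.05 on the log2 scale. Cyp2e1, which oxidises ethanol and acetaminophen in the pericentral zone, read 14.53, 14.79, 14.38 and 14.39 in untreated livers and 14.45, 14.54 and 14.65 as the lowest, median and highest of LKB1 livers. All LKB1 mice lay within the untreated range. The difference of 0.02 had a 95% confidence interval from -0.18 to 0.21. Cyp2f2, which oxidises naphthalene and in liver marks the periportal zone, read 14.56, 14.48, 14.62 and 14.59 in untreated livers and 14.30, 14.53 and 14.63 in LKB1 livers (-0.05, 95% confidence interval from -0.23 to 0.13). The deposited intensity of Cyp2e1 ran from 17682 to 30290, below the highest probe of any array (38524 to 49480). Whether such bright signals were compressed was not tested. In all, 12 of the 30 genes lay above the 98th percentile of probe brightness, with within-group SDs from 0.06 to 0.22. Brightness depends on the probe, so no order of transcript amounts between genes is read from it.

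Cyp1a2, the member of family 1 that liver makes constitutively and that oxidises caffeine and aromatic amines, had overlapping groups. It read 13.40, 13.18, 13.08 and 13.16 in untreated livers and 12.78, 13.16 and 13.40 in LKB1 livers. The difference of -0.07 had a 95% confidence interval from -0.36 to 0.21, and it was -0.30 with array medians made equal. Its other probe gave -0.01. Between the array sets Cyp1a2 averaged 13.33 in A and 13.00 in B, with no overlap (-0.33 ± 0.09, SE, adjusted p = 0.0914, limma). Cyp1a1, which AhR ligands induce, was detected on 0 arrays, and Cyp1b1, mainly an enzyme of other tissues, on 2 arrays, both of LKB1 mice (6 and 7).

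In all, 6 member probes of 5 genes had no overlap between the array sets, where 5.45% of all kept probes had none. They were the brightest probe of Cyp1a2, both bright probes of Cyp2c37, a dimmer probe of Cyp2c50, Cyp2d9 and Cyp2s1. Cyp2a5 overlapped between the sets, with a difference of set B minus set A of -0.71 ± 0.24 at its brightest probe (SE, adjusted p = 0.152, limma). Of the 44 probes 1, that of Cyp2s1, passed an adjusted p of 0.05 between the sets, where 0.792% of all kept probes did. It was higher in set B by 0.61 ± 0.12 (SE, adjusted p = 0.0438, limma). The Cyp2s1 probe was dim, averaging 4.82 in set A and 5.43 in set B. The sets were made from probes at background, and how far this difference follows from their making was not tested. Cyp2s1 differed by 0.02 between LKB1 and untreated livers. What sets the array sets apart was not tested.

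The remaining subfamilies were mostly below detection. Of 7 Cyp2j genes, which epoxidise arachidonic acid, Cyp2j9 alone was measured, with 6.81, 6.81, 6.46 and 6.91 in untreated livers and 6.52, 6.80 and 7.01 in LKB1 livers (0.01 ± 0.11, SE). Cyp2j5, Cyp2j6, Cyp2j8, Cyp2j11, Cyp2j12 and Cyp2j13 were detected on 0 arrays, as were Cyp2r1, a vitamin D hydroxylase, and Cyp2t4. Cyp2u1, which hydroxylates long-chain fatty acids, read 8.16, 8.22, 8.24 and 8.36 in untreated livers and 7.61, 8.09 and 8.53 in LKB1 livers. Its difference was -0.14 ± 0.14 (SE), or 0.11 in array set A and -0.40 in set B, and its dim second probe gave -0.05. Over both families 14 genes were detected on 0 arrays by any probe. A probe below detection says that its signal was not above background on these arrays, not that the transcript was absent.

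The partners and regulators of these enzymes were taken as a list of 37 genes, covering cytochrome b5, haem synthesis, the xenobiotic receptors, liver transcription factors and the PAR bZIP factors. Of these, 27 were measured, 8 higher and 19 lower (5 and 22 with array medians made equal), with a median of -0.04 on the log2 scale, and 0 passed an adjusted p of 0.05 (limma). Without adjustment 6 (22.2%) had a p under 0.05, 5 of them lower, against 6.3% of all genes at their brightest probe. The list was chosen with earlier results of these data known, among them the difference in Dbp. Its shares are therefore a description and not a test. For 4 genes, Tef, Ppara, Dbp and Nr1i2, no LKB1 mouse overlapped an untreated mouse, where 128 of 9725 genes had no overlap at their brightest probe. Counted over the 41 kept probes of the list, 6 had no overlap, the other two being a dim probe of Nr1i3 and a dimmer probe of Arnt, the partner of AhR. That Arnt probe was higher in LKB1 livers by 0.27 (adjusted p = 0.512, limma), as was its brightest probe by 0.29, while another gave 0.06. Por and Ahr were among the 10 genes not measured.

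The 4 genes of smallest p were all lower. Tef, a PAR bZIP factor like Dbp, read 8.83, 9.63, 8.93 and 9.14 in untreated livers and 7.73, 8.17 and 8.59 as the lowest, median and highest of LKB1 livers (-0.95 ± 0.19, SE, adjusted p = 0.301, limma), and at -1.13 it passed with array medians made equal (adjusted p = 0.0211). Ppara, the fatty acid receptor that governs lipid oxidation, read 6.63, 6.89, 6.62 and 6.95 in untreated livers and 6.08, 6.35 and 6.42 in LKB1 livers (-0.46 ± 0.10, SE, adjusted p = 0.353). Nr1i2, which encodes the xenobiotic receptor PXR, read 6.97, 6.93, 6.92 and 6.99 in untreated livers and 6.18, 6.67 and 6.80 in LKB1 livers (-0.39 ± 0.13, SE, adjusted p = 0.586). Within array set A and set B, the differences were -0.77 and -1.12 for Tef, -0.39 and -0.52 for Ppara, and -0.21 and -0.57 for Nr1i2. Dbp, the other of these genes, is given above with Cyp2a5. Hlf, the third PAR bZIP factor, was near background and differed by 0.00.

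Nr1i3, which encodes CAR, the receptor that drives Cyp2b10, read 11.36, 10.95, 11.41 and 11.38 in untreated livers and 10.92, 11.30 and 11.38 in LKB1 livers. The difference was -0.03 at this probe, -0.05 and 0.01 at 2 further bright probes, and -0.45 at a dim further probe (unadjusted p = 0.00113, adjusted p = 0.393, limma), so its probes disagree. Nr1i3 and Cyp2b10 gave r = -0.66 over the 10 mice (permutation p = 0.035, adjusted p = 0.0875) and rho = -0.62 (permutation p = 0.0609, adjusted p = 0.152). With array medians made equal that r was 0.32, so no direction is read from it. The pericentral pair Cyp2e1 and Cyp1a2 gave r = 0.27 (permutation p = 0.467, adjusted p = 0.467) and rho = 0.41, and the pair of opposite zones, Cyp2e1 and Cyp2f2, r = -0.31 (permutation p = 0.36, adjusted p = 0.467) and rho = -0.34. Both moved with the scaling. With array medians made equal, Cyp2e1 and Cyp1a2 gave r = 0.75 and passed (adjusted permutation p = 0.034), and Cyp2e1 and Cyp2f2 gave r = 0.59 (adjusted permutation p = 0.117). With array set means subtracted, the first pair gave r = -0.65, so no direction is read from either. A pair of Ahr and Cyp1a2 was planned and could not be computed, since Ahr was not measured.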

How the data were processed

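Total RNA from mouse liver was labelled with biotin for Illumina bead arrays, as the labels' protocols state. The deposited table gives each probe's detection p-value and its linear intensity before any normalization between arrays, per the file headers. The authors' processed values, read as log2 from their relation to each array's intensities, had a median of 4.36 in every column and served as an alternative. The submitters' processing notes name lumi without a version. Intensities were background-corrected, offset by 16, quantile-normalized and log2-transformed by neqc (limma 3.58.1, R 4.3.3). Probes were kept where 4 or more arrays had a detection p under 0.05. Groups were compared with limma (lmFit and eBayes, two-sided, no covariate), with Benjamini-Hochberg adjustment over all 16803 kept probes. Intervals are at 95%. Precision is limited by there being 10 arrays.

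Symbols came from the platform annotation. All 73 member probes matched RefSeq (GRCm38.p6), 0 with another symbol. The kept probe of highest mean stands for a gene, and other kept probes of the member genes are given too. In each subfamily the gene of smallest p and the gene of highest mean, Cyp1a2, Cyp2e1, Cyp2f2 and the genes of the pairs were given as the 4 untreated values and the lowest, median and highest LKB1 value, as were the 4 partners of smallest p. The members, lists and pairs were chosen with earlier results of these data known. Correlations used two-sided permutation p-values (100000 resamples, or exact enumeration for 6 mice; SciPy 1.17.1). An LKB1 title whose number may belong to the gene's name was taken as replicate 1. The replicate numbers shared by both groups (1, 2 and 4) were not taken as pairs of mice. Deviations from group means correlated at 0.15, 0.24 and -0.17. Replicates 1 and 2 lay within array set A and replicate 4 spanned both sets, so these values cannot show whether mice were paired. Each array was treated as 1 mouse, since the design text gives its numbers in mice. The sources used here do not give the time of day of collection.

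The fit was tested on 5 simulations of the LKB1 minus untreated comparison on 16803 probes with 200 changed: 74% of 1.5-fold, 91.6% of 2-fold and 98.8% of 3-fold changes were recovered, with a mean of 9.4 false calls. The simulated noise was independent between probes. In the data themselves 0 of 16803 probes passed, and Dbp at -2.09 on the log2 scale had an adjusted p of 0.442 (limma). The recovered shares therefore do not tell how often a change in a member gene would be found.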

Additional observations from a re-analysis of the deposited data

How the results depend on the processing

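The 0 member probes at an adjusted p of 0.05 stayed 0 under all 22 alternatives (limma). With array medians made equal in place of quantile normalization, the median of all probes moved to -0.14: 15 of all probes and 2 partners (Dbp and Tef) then had an adjusted p under 0.05, 8 of 44 member probes (18.2%) had an unadjusted p under 0.05, against 877 of all probes (5.22%), and the median of the member genes was -0.21. On that scale Cyp2a5 was at -1.03 and its adjusted p 0.416. Without the filter on detection, 2504 of 45281 probes (5.53%) had an unadjusted p under 0.05, against 1119 of 16803 (6.66%) with it. Within array set A, 2 member probes (4.55%) and 3 partners had such a p, against 6.9% of all probes. With the replicate block, 3 member probes (6.82%) and 3 partners had such a p, against 6.21% of all probes. Cyp2a5 was then at -0.41. The block compares the groups only within replicates 1, 2 and 4. Untreated 3 and LKB1 5, 6 and 7 do not enter that comparison. The block changed no call at an adjusted p of 0.05. Cyp2d12 turned to 0.0212 in set A and 0.135 under the block, and Cyp2u1 to 0.107 and 0.0518. Leaving out 1 mouse at a time gave 1 to 7 member probes (1 without untreated 2, 3 without untreated 3 or LKB1 6), 717 to 1390 of all probes and 4 to 7 partners at an unadjusted p under 0.05, 0 to 1 of all probes at an adjusted p of 0.05 (1 without LKB1 2), and a member median from -0.06 to -0.01. In the same way r ran from 0.78 to 0.94 for Dbp and Cyp2a5, from 0.06 to 0.41 for Dbp and Cyp2a4, from -0.75 to -0.49 for Nr1i3 and Cyp2b10 (adjusted permutation p = 0.0475 without untreated 3 and 0.0438 without LKB1 7), from 0.15 to 0.36 for Cyp2e1 and Cyp1a2, and from -0.44 to -0.21 for Cyp2e1 and Cyp2f2. With array medians made equal, r was 0.32 for Nr1i3 and Cyp2b10, 0.75 for Cyp2e1 and Cyp1a2 (adjusted permutation p = 0.034) and 0.59 for Cyp2e1 and Cyp2f2. For Dbp and Cyp2a5 r was 0.71 without the 2 farthest mice, 0.90 within LKB1 mice and 0.74 with group means subtracted, each above an adjusted p of 0.05. Within LKB1 mice r was -0.74 for Dbp and Cyp2a4 and 0.0338 for Cyp2e1 and Cyp2f2. Dbp and Cyp2a4 had r = -0.20 with group means subtracted, and Cyp2e1 and Cyp1a2 r = -0.65 with array set means subtracted, an alternative chosen after seeing the data. The causes were not tested. Of 459 values of 21 single genes under the alternatives, 442 kept both direction and side of the threshold or moved by less than their spread. The sign itself changed in 34 of the 459, so the 442 are not all of unchanged direction. Signal near background limits Cyp2a4, Cyp2b23, Cyp2c40 and Cyp2c55, each averaging under 5 on the log2 scale.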
